A study of Mus musculus with 12 samples.

Results

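Aldh3a1, Adh7, Slurp1 and Lgals7 were followed through the conversion of mouse fibroblasts to pluripotent cells. These 4 of the 24098 genes in the deposited table were chosen by symbol, as genes that were high in the middle of reprogramming and low in both fibroblasts and pluripotent cells. Their pattern over the 12 libraries was thus the ground of the choice and is given as a description, with no test. All 4 genes were found in the table and all 4 reached 1 FPKM in at least 1 library, as 14178 genes did.

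Messenger RNA had been sequenced in 1 library for each of 12 conditions. The starting cells were mouse embryonic fibroblasts (MEFs), taken at E13.5, in which EGFP is expressed from the Oct4 locus through an IRES, and D0, labelled wild type, was such cells at day 0. Retroviral pMXs vectors for Oct4, Sox2, Klf4 and c-Myc (OSKM) were used to infect them, and the labels give a feeder-free medium called FF, with LIF, bFGF, ascorbic acid and CHIR99021. D3 was unsorted, D6T- and D6T+ and D9T- and D9T+ were sorted on Thy-1, a surface protein of fibroblasts, and D12S+ and D12S- and D16S+ and D16S- on SSEA-1, a carbohydrate of pluripotent cells, the digits being the day after OSKM induction. Loss of Thy-1 and gain of SSEA-1 mark the successful route in this study. The ends of the series were D0, fully reprogrammed iPSCs and the wild-type mouse embryonic stem cell line ESD3 (mESCs), the last 2 also grown in FF medium by the labels. The study's methods name other media as well. How many embryos the fibroblasts came from and whether the iPSCs were 1 clone were not given in the sources used here. The sorted libraries are mixtures of cells, and fewer cells with an mRNA and less of that mRNA per cell cannot be told apart in them.

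The 4 genes belong to unrelated protein families but are best known from stratified epithelia, the layered sheets that line the skin, cornea and upper digestive tract. Aldh3a1 encodes an aldehyde dehydrogenase that oxidises aldehydes of lipid peroxidation and is very abundant in the corneal epithelium. Adh7 encodes the class IV alcohol dehydrogenase, which oxidises ethanol and retinol in the epithelium of the stomach and oesophagus. Slurp1 encodes a small secreted protein of the Ly6/uPAR family that is made by keratinocytes and acts on nicotinic acetylcholine receptors. Lgals7 encodes galectin-7, a lectin that binds beta-galactosides and is characteristic of stratified epithelia.

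By GENCODE M1, on mm9 coordinates, Aldh3a1 lies on chromosome 11 from 61021039 to 61031923 on the plus strand, and Adh7 on chromosome 3 from 137880787 to 137896346 on the plus strand. Slurp1 lies on chromosome 15 from 74557074 to 74558456 on the minus strand, and Lgals7 on chromosome 7 from 29648872 to 29651303 on the plus strand. In the deposited table Adh7 was listed over a wider span, from 137873680 to 137902627. Aldh3a1 was listed there from 61022243 and Lgals7 from 29649404. All 4 are annotated as protein coding. The 4 genes are thus on 4 different chromosomes, and none of them is a neighbour of another.

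Because the 4 genes were high in the same libraries, the sequence before their starts was examined for motifs. These were motifs of Oct4, Klf4 and c-Myc, and of factors known at such genes. No Sox2 motif was searched. The RefSeq promoter table, on the GRCm38.p6 build, held 2 of the 4 genes, Adh7 and Lgals7. Starts in this and the next paragraph are those of RefSeq, which differ from the GENCODE M1 starts given above. The 250 bases before the Adh7 start, at chr3:138217523-138217772 on the plus strand, occur once in mm9, at chr3:137880487-137880736. By GENCODE M1 the gene begins further on, at 137880787. The span of Adh7 in the deposited table begins earlier, at 137873680, so these 250 bases lie inside it. For Lgals7, the stretch of 93 bases that lay outside annotated exons is shown, at chr7:28864136-28864228 on the plus strand, which occurs once in mm9 at chr7:29649155-29649247. That stretch lies inside the GENCODE M1 span of Lgals7, which begins at 29648872, and the other 157 of the 250 bases fell in annotated exons. Capitals mark the matches to the motifs described in the next paragraph.
Adh7: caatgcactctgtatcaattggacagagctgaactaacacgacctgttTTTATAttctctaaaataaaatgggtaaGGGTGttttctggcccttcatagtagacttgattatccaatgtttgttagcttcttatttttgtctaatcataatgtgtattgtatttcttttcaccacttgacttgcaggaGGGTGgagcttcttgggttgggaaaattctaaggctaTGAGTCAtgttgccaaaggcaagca
Lgals7: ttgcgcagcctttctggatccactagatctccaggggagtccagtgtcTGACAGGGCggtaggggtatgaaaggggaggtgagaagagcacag

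The motifs were searched on both strands of the 250 bases before the RefSeq start, in 32851 promoters of the same length. In Adh7, the AP-1 motif TGANTCA was found once, as TGAGTCA at bases 25 to 19 before the start, and 6.75% of all promoters held it. The core CACCC of the KLF motif was found at 2 places in Adh7, at bases 174 to 170 and 62 to 58 before the start and both as GGGTG on the minus strand, but 52.0% of all promoters held it. The TATA motif TATAAA was found once in Adh7, on the minus strand at bases 202 to 197 before the start, and in 12.4% of promoters. In Lgals7, the antioxidant response element TGANNNNGC was found once, as TGACAGGGC on the plus strand at bases 202 to 194 before the start, and 35.2% of promoters held it. The dioxin response element GCGTG (28.2% of promoters), the octamer ATGCAAAT (1.60%) and the E-box CACGTG of Myc (6.02%) were in neither of these windows, which says only that these letters are not there. No match overlapped another. The AP-1 match of Adh7 and the antioxidant response element of Lgals7 were not shared between the genes.

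In D3 and the 8 sorted libraries, Aldh3a1 was the most abundant of the 4 genes on the FPKM scale, which is per length of transcript. It was at 3.31 FPKM in D0 and at 133 in D3. In the Thy-1- and SSEA-1+ libraries it was at 561 FPKM in D6T-, 682 in D9T-, 356 in D12S+ and 79.6 in D16S+. In the Thy-1+ and SSEA-1- libraries it was at 398 FPKM in D6T+, 704 in D9T+, 877 in D12S- and 869 in D16S-. The gene was thus high in both fractions up to day 9 and by day 16 stayed near its highest value only on the SSEA-1- side. It was at 0.436 FPKM in iPSCs and 1.70 in mESCs. By rank among all 24098 genes, Aldh3a1 was at place 8990 in D0, 82 in D12S- and 12678 in iPSCs.

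Adh7 reached its high level earliest. It was at 1.33 FPKM in D0 and 110.3 in D3, already 58.3% of its highest value. In the Thy-1- and SSEA-1+ libraries it was at 132 FPKM in D6T-, 127 in D9T-, 44.1 in D12S+ and 13.4 in D16S+. The values in the other fractions were 151 FPKM in D6T+, 189 in D9T+, 105 in D12S- and 114 in D16S-. From day 3 to day 9 it thus stayed between 110.3 and 189 FPKM in both fractions, and the lower values came from the SSEA-1+ cells. It was at 0.152 FPKM in iPSCs and 0.162 in mESCs. Its rank among all genes went from 10722 in D0 to 447 in D9T+, its highest.

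Slurp1 was listed at 0 FPKM in D0, iPSCs and mESCs, which in this kind of table can also be a failed estimate. It was at 19.0 FPKM in D3, 11.5% of its highest value. In the Thy-1- and SSEA-1+ libraries it was at 109.8 FPKM in D6T-, 102 in D9T-, 89.9 in D12S+ and 13.7 in D16S+. The other fractions had 135 FPKM in D6T+, 127 in D9T+, 165 in D12S- and 124 in D16S-. Slurp1 was thus present in all 9 libraries between the ends, and its day 12 SSEA-1+ value was closer to those of day 9 than that of Adh7 was. At its highest, in D12S-, it ranked 458.

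Lgals7 had the highest level of the 4 at each of the ends, at 4.39 FPKM in D0, 6.30 in iPSCs and 8.84 in mESCs. It was at 18.4 FPKM in D3, only 5.03% of its highest value. In the Thy-1- and SSEA-1+ libraries it was at 197 FPKM in D6T-, 365 in D9T-, 198 in D12S+ and 26.9 in D16S+. In the other fractions it was at 50.6 FPKM in D6T+, 265 in D9T+, 316 in D12S- and 161 in D16S-. As a share of its highest value, Lgals7 was thus the lowest of the 4 in D3, though its interval there ran from 0 to 53.0 FPKM. On day 6 it was high in the Thy-1- cells and lower in the Thy-1+ cells. It was highest in D9T-, at rank 182.

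**Figure D1:**
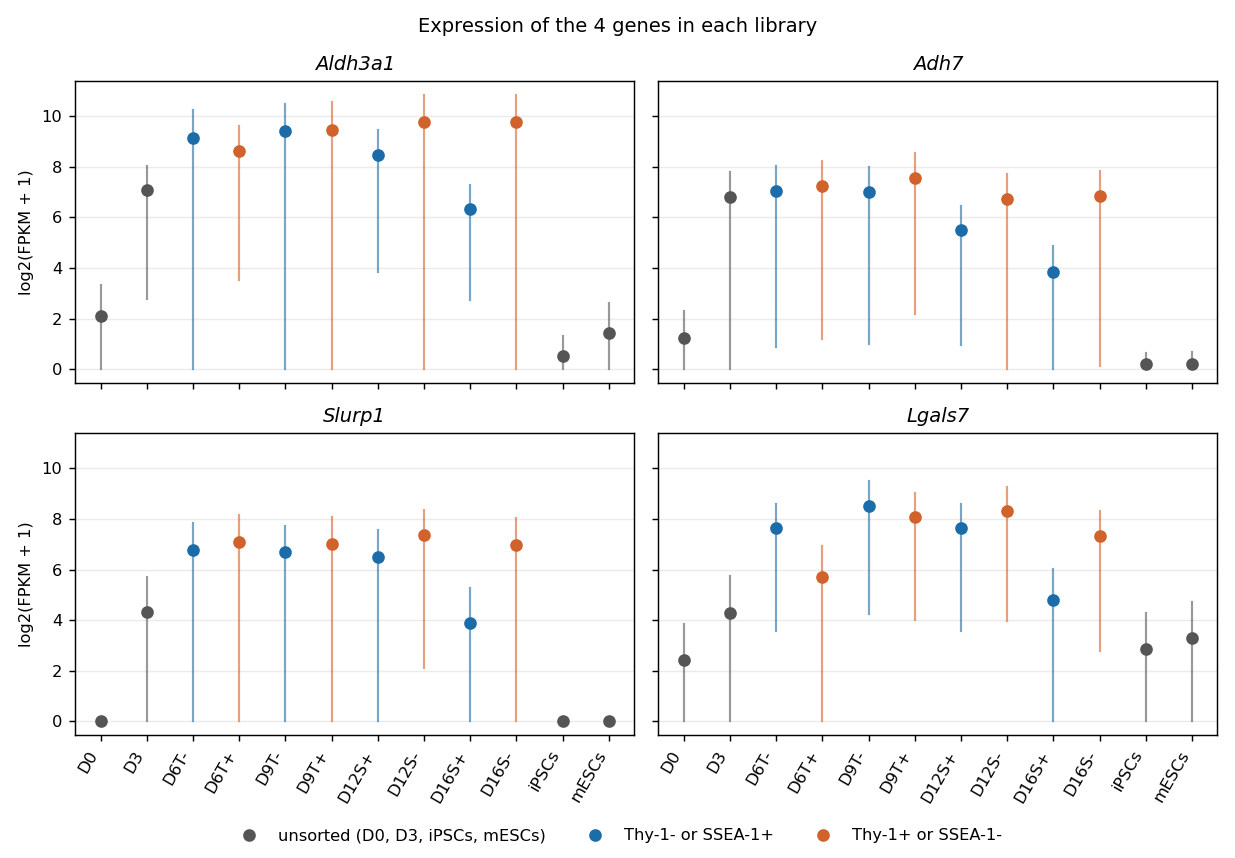
Level of each of the 4 genes in the 12 libraries, as log2(FPKM + 1) on the vertical axis. Points are the deposited FPKM and lines the interval that cuffdiff gave to it, which is modelled and not a spread between replicates. Grey points are unsorted libraries, blue points Thy-1- or SSEA-1+ and orange points Thy-1+ or SSEA-1-. From day 6 to day 12 the points of all 4 genes lie above those of D0, iPSCs and mESCs in both colours, with Lgals7 lower in D6T+ than in D6T-. On day 16 the blue point lies below the orange one.

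Over the 8 sorted libraries, the lowest, median and highest values were 79.6, 621 and 877 FPKM for Aldh3a1 and 13.4, 120.6 and 189 FPKM for Adh7. They were 13.7, 116.8 and 165 FPKM for Slurp1 and 26.9, 198 and 365 FPKM for Lgals7. D16S+ was the lowest sorted library for all 4 genes, and no value in a sorted library was as low as any of the values at the 3 ends. The precision of single values was low. Of the 48 intervals of cuffdiff for the 4 genes, 31 began at 0, and the intervals of all 8 sorted libraries overlapped within each gene, so that no order among them is resolved. The interval lay wholly above that of mESCs in 3 sorted libraries for Aldh3a1, 5 for Adh7, 1 for Slurp1 and 0 for Lgals7. It lay wholly above that of D0 in 2, 0, 1 and 3 of them, in the same order of genes.

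To place the 4 genes among all others, the intermediate excess was taken as the highest log2(FPKM + 1) among D3 and the 8 sorted libraries minus the highest among D0, iPSCs and mESCs. An excess of at least 4-fold was seen in 3.70% of kept genes, 525 of 14178, and the median over all kept genes was -0.03. Since the 4 genes were picked for this contrast, their place in it is a description alone. The excess of Aldh3a1 was 7.67 on the log2 scale, from D12S- against D0, rank 7 of all kept genes. Slurp1 had an excess of 7.37 (rank 8), Adh7 of 6.35 (rank 17) and Lgals7 of 5.22 (rank 35). The value of Slurp1 was set against ends listed at 0 and depends on the pseudocount, with 10.68 at a pseudocount of 0.1.

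**Figure D2:**
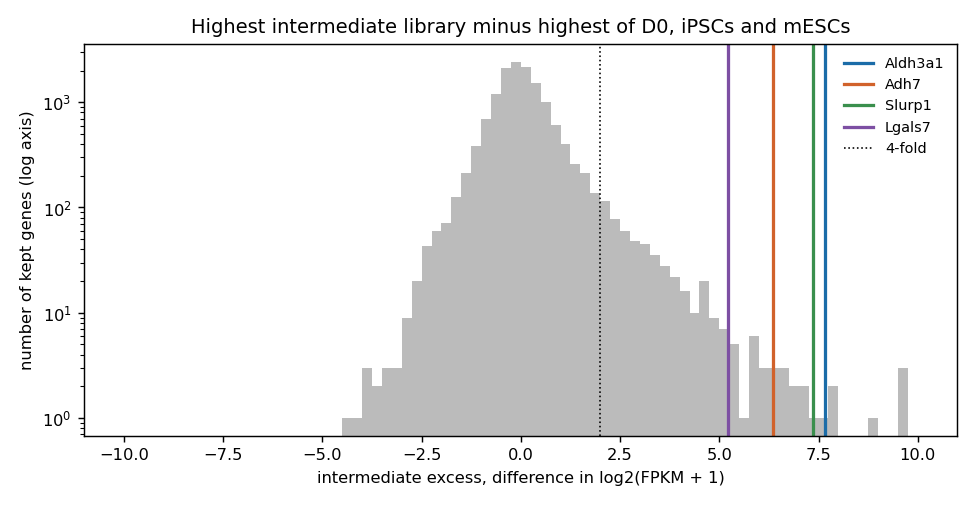
Distribution of the intermediate excess over the 14178 kept genes, in log2 units on the horizontal axis and with the number of genes on a log axis. Coloured lines mark the 4 genes, between 5.22 and 7.67, and the dotted line marks a 4-fold excess, which 3.70% of kept genes passed.

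The first step was examined between D0 and D3, when cells had not yet been sorted. All 4 genes were at least 2-fold higher in D3, as were 5.76% of kept genes. Low values in fibroblasts were a ground of the choice, so this is a description alone. Adh7 was 82.8-fold and Aldh3a1 40.0-fold higher in D3 by the ratio of FPKM, and Lgals7 4.18-fold higher. Slurp1 went from listed at 0 to 19.0 FPKM, so no fold is given. The intervals of D0 and D3 overlapped for each gene. As a share of the highest value, D3 ranged from 5.03% for Lgals7 through 11.5% for Slurp1 and 15.1% for Aldh3a1 to 58.3% for Adh7. In this unsorted library the Thy1 mRNA was at 123 FPKM against 669 in D0.

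Next, the fractions of each day were compared, with the Thy-1- or SSEA-1+ library as the first of each pair and differences in log2(FPKM + 1). On day 6, Lgals7 was 1.94 higher in D6T- than in D6T+, and 2.93% of kept genes were at least 2-fold higher there. The other 3 genes lay within 2-fold, with differences of 0.49 for Aldh3a1, -0.20 for Adh7 and -0.29 for Slurp1. On day 9 none of the 4 passed 2-fold in either direction, as 1.81% of kept genes did on the higher and 6.45% on the lower side. The day 9 differences were 0.46 for Lgals7, -0.05 for Aldh3a1, -0.32 for Slurp1 and -0.58 for Adh7. That of Aldh3a1 had no stable sign and ran from -0.08 to 0.07 with the scaling of the libraries and the pseudocount. The 4 genes were thus not split by Thy-1 in one way, whereas the Thy1 mRNA itself was at 3.72 FPKM in D9T- and 491 in D9T+.

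On days 12 and 16 all 4 genes were lower in the SSEA-1+ library. On day 12 the difference was -1.30 for Aldh3a1 and -1.23 for Adh7, past 2-fold, and -0.87 for Slurp1 and -0.67 for Lgals7, within 2-fold. Only 3.03% of kept genes were 2-fold lower in D12S+ than in D12S-. On day 16 all 4 genes were more than 4-fold lower in D16S+, at -3.43 for Aldh3a1, -3.08 for Slurp1, -3.00 for Adh7 and -2.54 for Lgals7. By the ratio of FPKM, D16S- was 10.9-fold, 9.02-fold, 8.51-fold and 5.98-fold above D16S+, in the same order. A 2-fold lower value in D16S+ was seen in 15.2% of kept genes, and the median over kept genes was -0.02. The direction on days 12 and 16 held under every scaling and pseudocount tried. The intervals of both fractions overlapped in each of the 16 pairs of gene and day, for example 5.59 to 154 FPKM in D16S+ and 0 to 1815 in D16S- for Aldh3a1. D16S+ was also the deeper library of that pair, at 1.51 times the estimated depth of D0 against 1.00 for D16S-.

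**Figure D3:**
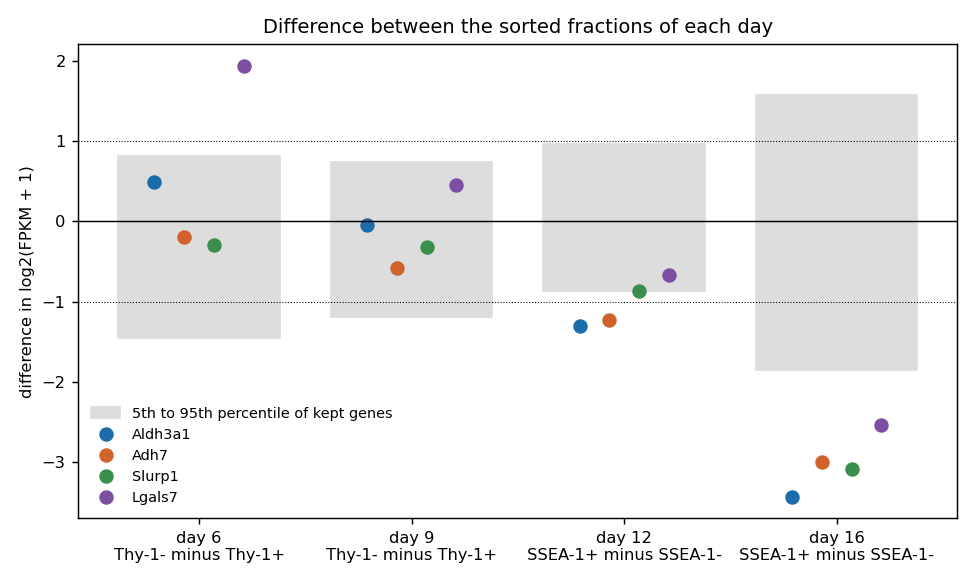
Difference between the sorted fractions of days 6, 9, 12 and 16, as log2(FPKM + 1) of the Thy-1- or SSEA-1+ library minus the other, with 1 point for each of the 4 genes. Grey boxes span the 5th to the 95th percentile of the 14178 kept genes and dotted lines mark 2-fold. The points lie on both sides of 0 on days 6 and 9 and between -2.54 and -3.43 on day 16, below the grey box.

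Along the SSEA-1+ route, the 4 genes were lower in each of 2 steps. Each was at least 2-fold lower in D16S+ than in D12S+, as were 5.32% of kept genes, with log2 differences of -2.84 for Lgals7, -2.63 for Slurp1, -2.15 for Aldh3a1 and -1.64 for Adh7. Established iPSCs were again at least 2-fold below D16S+ for all 4, as for 7.77% of kept genes. Low values in pluripotent cells were a ground of the choice, so this step is a description alone. That second difference was -5.81 for Aldh3a1, -3.88 for Slurp1, -3.65 for Adh7 and -1.93 for Lgals7. For Aldh3a1 the intervals of iPSCs, up to 1.5 FPKM, and D16S+, from 5.59 FPKM, did not overlap, and for the other 3 genes they did. D16S+ cells, in which Nanog was at 192 FPKM and Dppa5a at 3582 FPKM, thus still held 79.6 FPKM of Aldh3a1 mRNA against 0.436 FPKM in iPSCs. What cells in D16S+ carried it was not tested.

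In the opposite direction, the D16S- values did not return to those of D0, though the intervals of both libraries overlapped for each gene. Aldh3a1 was at 99.2% of its highest value there, Slurp1 at 75.2%, Adh7 at 60.4% and Lgals7 at 44.1%. Against D0, the D16S- library was higher by 7.66 on the log2 scale for Aldh3a1, 6.96 for Slurp1, 5.63 for Adh7 and 4.91 for Lgals7. iPSCs and mESCs were within 2-fold of each other for all 4 genes on the log2(FPKM + 1) scale. For Aldh3a1 this rests on the pseudocount, as the ratio of FPKM was 3.89-fold, higher in mESCs, and the difference was -1.75 at a pseudocount of 0.1. The difference of iPSCs from D0 was -1.59 for Aldh3a1, -1.02 for Adh7 and 0.44 for Lgals7, and Slurp1 was listed at 0 in both.

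The likeness of the 4 patterns was measured as Pearson's r of log2(FPKM + 1) over the 12 libraries, among 10805 genes that reached 5 FPKM. These libraries are related in time and the 4 genes were chosen for low ends, so it is a description. Aldh3a1 and Slurp1 were each the gene most like the other (r = 0.988), and Adh7 was the fifth most like for both, with r = 0.968 to Aldh3a1 and 0.957 to Slurp1. Lgals7 stood somewhat apart, with r = 0.922 to Slurp1, 0.914 to Aldh3a1 and 0.829 to Adh7. Over the 8 sorted libraries alone, which leave out the ends, r was 0.935 for Aldh3a1 and Slurp1, 0.902 for Adh7 and Slurp1 and 0.877 for Aldh3a1 and Adh7. With Lgals7 it was 0.837 for Aldh3a1, 0.710 for Slurp1 and 0.612 for Adh7.

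Beside each other, the genes most like Aldh3a1 were Ccdc141, Ly6a (Sca-1, a GPI-anchored protein of the Ly6 family) and Miat, a long noncoding RNA. For Adh7 they were Avil, which encodes the actin-binding protein advillin, then Mfsd6, Miat and the sugar transporter gene Slc2a6, with r between 0.970 and 0.982. Slurp1 shared Miat and Ccdc141 with Aldh3a1 and added Pkp1, the gene of the desmosomal plaque protein plakophilin 1. Lgals7 had another set, namely Clic3, the Fc receptor gene Fcgr2b, Pkp1, Lrrc26 and Clec3b, with r between 0.972 and 0.986. Pkp1 was at 0.0844 FPKM in D0, 58.8 in D12S- and 0.0386 in iPSCs, and Clec3b at 0.0549 in D0, 274 in D9T+ and 0.201 in iPSCs. These neighbours in the ranking depend on the measure. By Spearman's rho, 0 of the 5 genes most like Aldh3a1, Adh7 and Slurp1 stayed among the 5, and 1 of those for Lgals7 did. Over the 8 sorted libraries 0 stayed for Aldh3a1, Adh7 and Slurp1 and 2 for Lgals7.

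The pattern was then looked for in the families of the 4 genes. Of 19 other aldehyde dehydrogenase genes, 18 were kept, with a family median of 0.17. An intermediate excess of at least 4-fold was seen in 3 of them, beside 3.70% of all kept genes. The 3 were the retinaldehyde dehydrogenase genes Aldh1a1 (3.31 on the log2 scale) and Aldh1a3 (2.57) and their close relative Aldh1a7 (2.30). All 3 were kept only through libraries between the ends, so this count is partly set by the filter. Aldh1a1 was at 0.463 FPKM in D0, 13.5 in D9T- and 0.0891 in iPSCs, far below Aldh3a1. Aldh1a1 and Aldh1a7 are close copies, so reads with more than 1 locus were removed from both and their split is uncertain. Aldh2, the mitochondrial enzyme of ethanol breakdown, was the most abundant of these relatives and ranged from 134 to 300 FPKM. Aldh3a2, the gene next to Aldh3a1 at a distance of 4996 bases and a close relative of it, ranged from 12.4 to 29.6 FPKM and was as high in D0 as in D6T+. The other family genes of at least 10 FPKM, Aldh3b1, Aldh1b1, Aldh18a1, Aldh16a1, Aldh9a1, Aldh7a1, Aldh4a1 and Aldh1l1, had an excess between -1.30 and 1.00. On day 16, 4 of the 18 kept genes were 2-fold lower in D16S+, beside 15.2% of all kept genes, and the median was -0.01. They were Aldh1a1, Aldh1a3, Aldh3b1 and the mitochondrial folate enzyme gene Aldh1l2.

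Of the alcohol dehydrogenases, 4 were in the table beside Adh7 and 2 were kept, with a median excess of 0.57. Of the 2, 1 had a 4-fold excess, beside 3.70% of all kept genes. It was Adh1, the class I enzyme and the next gene downstream of Adh7 at 27609 bases. Adh1 had an excess of 2.24 but reached only 7.05 FPKM, in D9T+. It was kept only through libraries between the ends, so the count and the median are partly set by the filter. Adh5, the class III enzyme that clears formaldehyde, was present throughout at 91.3 to 258 FPKM and was highest in mESCs. Adh1 was 2-fold lower in D16S+ than in D16S- (-1.01), as were 15.2% of all kept genes, and Adh5 was not (0.27). The high level was thus not shared by the genes beside Aldh3a1 and Adh7. On their other sides, Usp22 was at 33.3 to 64.5 FPKM and 4930579F01Rik at no more than 0.0212 FPKM. Near Lgals7, Capn12 reached 1.06 FPKM and Lgals4 ranged from 0.859 to 6.66 FPKM.

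Several genes of the Ly6/uPAR family were also high between the ends. Of 29 family genes in the table beside Slurp1, 20 were kept and 7 had an excess of at least 4-fold, beside 3.70% of all kept genes, with a family median of 1.43. Ly6a had an excess of 6.09 and was at 16.4 FPKM in D0, 1180 in D16S- and 1.62 in iPSCs. Ly6c1, a surface antigen of leukocytes and endothelium, had an excess of 5.28 and was at 7.31 FPKM in D0, 321 in D16S- and 0.363 in iPSCs. Ly6d (4.60), Lypd2 (4.37), Ly6g6c (2.21), Cd59a (2.12) and Lypd5 (2.10) passed too, at highest levels between 3.53 and 27.3 FPKM. Ly6d, Lypd2, Ly6g6c and Lypd5 were kept only through libraries between the ends, so the count of 7 is partly set by the filter. Ly6g6d, Plaur, Lynx1, Ly6e, Ly6g6e and Ly6k reached 10 FPKM without passing. On day 16, 4 of the 20 kept genes were 2-fold lower in D16S+, a share near the 15.2% of all kept genes, and these were Ly6c1 (-2.95), Ly6a (-2.33), Plaur (-2.06) and Lynx1 (-1.96). Another 4 were 2-fold higher there, beside 11.8% of all kept genes, namely Ly6g6e (3.30), Tex101 (1.95), Cd59a (1.24) and Ly6k (1.23). The family median was -0.66, and -0.23 with no filter on low values. Ly6a and Ly6c1 have close copies, and how reads of such copies were assigned affects their level. Lypd2 lies beside Slurp1, listed at 0 in D0 and at 22.3 FPKM in D9T+, and one annotated span of Lypd2 on the same strand, from 74549460 to 74564743, contains Slurp1. The loci of both genes in the deposited table did not overlap. Psca, 9581 bases away on the plus strand, stayed under 3 FPKM, with 2.88 FPKM in D16S- at most.

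Galectins other than Lgals7 mostly followed another course. The table held 9, of which 6 were kept. Of the 6, 1 reached a 4-fold excess, beside 3.70% of all kept genes, namely Lgals3 (2.00), the gene of galectin-3. Lgals3 was at 105 FPKM in D0, 539 in D16S- and 36.8 in mESCs. Lgals1 was at 9919 FPKM in D0 and 511 in iPSCs, with an excess of -1.02. Lgals9 (0.37) and Lgals8 (-0.18) came close in their highest intermediate library to their level in D0, which was above that in iPSCs and mESCs. On day 16, the 4 galectins named here, of 6 kept, were at least 2-fold lower in D16S+, beside 15.2% of all kept genes, and the median was -1.07.

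Since the 4 genes are known from stratified epithelia, markers of keratinocytes were examined in the same libraries. Of 32 suprabasal and cornified layer markers in the table, 15 never reached 1 FPKM and 17 were kept. Of the 17, 12 had a 4-fold excess, beside 3.70% of all kept genes, but several of them were kept only through libraries between the ends, so this count is partly set by the filter. The largest were those of Cnfn (5.22), Sprr2d (4.90), Krtdap (4.67) and Sprr2b (4.40), genes of the cornified envelope and of keratinocyte differentiation. Krtdap was at 0.155 FPKM in D0, 101 in D6T+ and 0.563 in iPSCs, and Cnfn was listed at 0 in D0 and at 40.7 in D3, its highest. The Sprr2 genes are close copies of each other, so their separate levels are uncertain. On day 16, 15 of the 17 were at least 2-fold lower in D16S+, beside 15.2% of all kept genes. The median was -1.59 over the 17 and -0.47 with no filter, over all 32.

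Of 12 basal keratinocyte markers, 10 were kept and 3 had a 4-fold excess, beside 3.70% of all kept genes, with a list median of 1.19. The 3 were Itgb4 (4.35), an integrin subunit of hemidesmosomes, Krt17 (3.30) and Krt14 (2.78), and the p53 target Perp came next (1.79). Itgb4 was at 1.53 FPKM in D0, 211 in D12S- and 9.42 in iPSCs. Krt14 reached 39.9 FPKM, in D16S-. On day 16, 6 of the 10, beside 15.2% of all kept genes, were at least 2-fold lower in D16S+. Krt5 (-1.01) was among them and was kept only through D3 and D16S-, so this count is partly set by the filter. The median was -1.05 over the 10 and -0.79 with no filter, over all 12.

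Several markers taken here as defining for keratinocytes were low in every library. Krt5, the partner of Krt14 in basal cells, was at 1.64 FPKM at most, in D16S-, and Trp63, the master regulator of stratified epithelium, at 0.653 FPKM at most, in D6T-. Krt1 reached 0.879 FPKM, Krt10 0.826 FPKM and Lor 0.703 FPKM. Ivl was at 6.70 FPKM in D0 and no higher in any other library. Krt1 was listed at 0 in D0, D3 and iPSCs. The markers of stratified epithelium were thus split, with Itgb4, Krt14, Krt17 and most kept cornified markers high between the ends and Krt5, Trp63, Krt1, Krt10 and Lor low throughout.

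The summed level of the marker lists moved with the 4 genes in part. The suprabasal and cornified list summed to 73.8 FPKM in D0, 234 in D3, 116 to 525 in the 8 sorted libraries, 92.9 in iPSCs and 26.5 in mESCs. Within day 16 it was 116 FPKM in D16S+ and 491 in D16S-. The basal list summed to 20.7 FPKM in D0, 182 in D3, 145 to 464 in the sorted libraries, 119 in iPSCs and 52.4 in mESCs. Whether a small number of epithelial cells carried both these markers and the 4 genes was not tested.

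**Figure D4:**
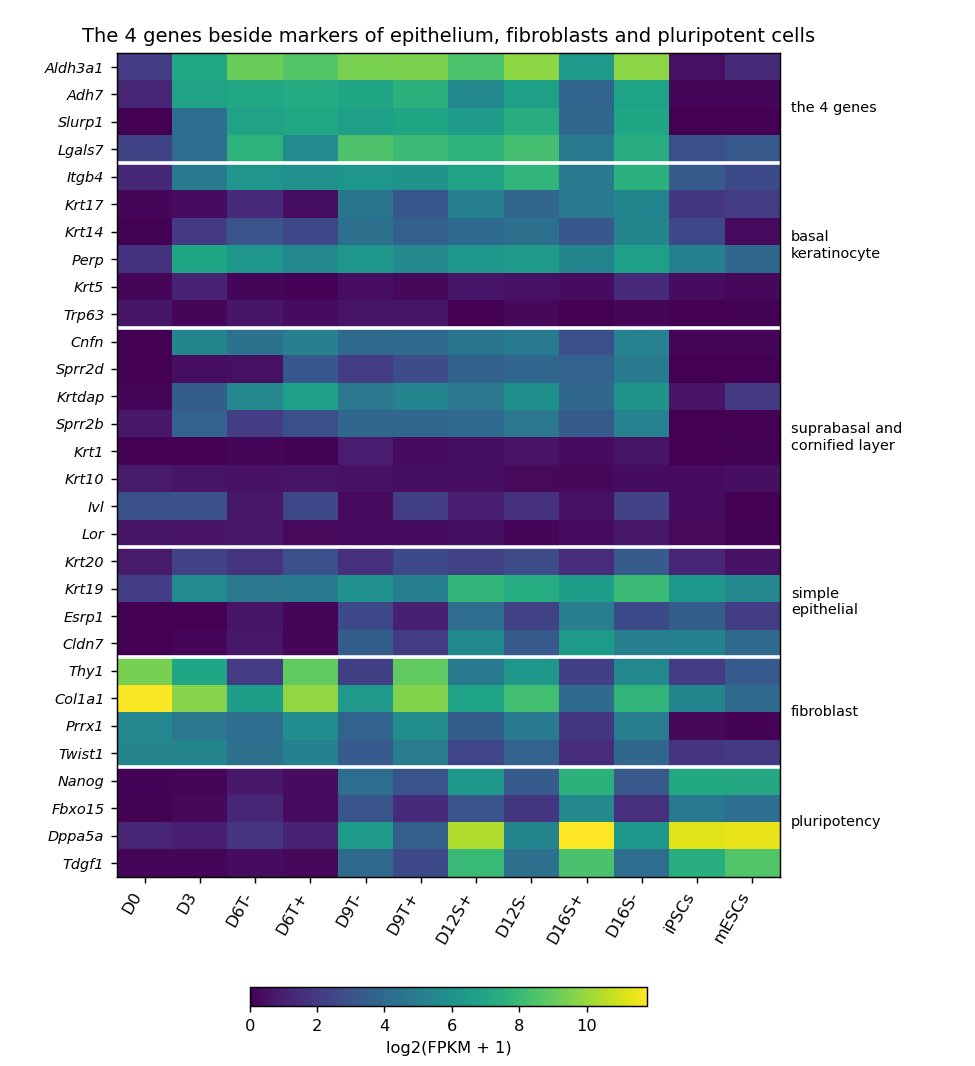
Level of the 4 genes and of marker genes in the 12 libraries, as log2(FPKM + 1) by colour from dark at 0 to yellow, with white lines between the lists. The 4 genes and Itgb4, Cnfn and Krtdap are bright between D0 and iPSCs, while Krt5, Trp63, Krt1, Krt10 and Lor stay dark in every library.

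Transcription factors of stratified epithelium did not follow the 4 genes closely. Of 20 such genes 18 were kept, with a median of 0.58. Of these, 2 had a 4-fold excess, Ehf (2.22) and Barx2 (2.21), beside 3.70% of all kept genes. Ehf was at 3.66 FPKM at most, in D9T-, and was kept only through libraries between the ends. Barx2 was at 14.1 FPKM at most, in D16S-. Prdm1 (1.96) and Ovol1 (1.30) came next. On day 16, 3 of the 18 were at least 2-fold lower in D16S+, namely Ehf, Barx2 and Tfap2a, a share near the 15.2% of all kept genes. Another 4 were at least 2-fold higher, beside 11.8% of all kept genes, namely Sox15 (2.31), Grhl2 (2.02), Tfap2c (1.73) and Klf5 (1.71). The list median on day 16 was 0.39, of the opposite sign to the 4 genes. Markers of simple epithelium were likewise split. Of 13, all kept, 1 had a 4-fold excess, Krt20 (2.18), beside 3.70% of all kept genes. Krt19 (1.75), Esrp1 (1.58) and Cldn7 (1.21) followed. The 5 keratin genes of the list, Krt7, Krt8, Krt18, Krt19 and Krt20, were 2-fold lower in D16S+, beside 15.2% of all kept genes. Another 4 genes of the list were 2-fold higher there, beside 11.8% of all kept genes, and the list median on day 16 was -0.06. Cldn7 was at 84.8 FPKM in D16S+ and 34.1 in D16S-, and thus higher in the fraction in which the 4 genes were low.

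The fractions differed widely in fibroblast and pluripotency genes too, so the day 16 difference of the 4 genes does not stand alone. Of 10 fibroblast markers 9 were at least 2-fold lower in D16S+, beside 15.2% of all kept genes, with a list median of -3.20. Col1a1 was at 3453 FPKM in D0, 16.3 in D16S+ and 208 in D16S-. Of the 10, 0 had an intermediate excess of 4-fold, beside 3.70% of all kept genes, and their median excess was -0.88. D0 is 1 of the ends, so a low excess of fibroblast markers follows from how the excess is defined. Nanog was at 192 FPKM in D16S+, 8.99 in D16S-, 143 in iPSCs and 137 in mESCs. All 10 pluripotency markers were kept and 0 had a 4-fold excess, beside 3.70% of all kept genes. Their median excess was -0.23, with iPSCs and mESCs among the ends, and their day 16 median was 4.32. The part of the mix of cells in the day 16 difference of the 4 genes was not tested.

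Finally, genes of the pathways in which Aldh3a1 and Adh7 are best known were described. Aldh3a1 is a classical target of the aryl hydrocarbon receptor. Of 9 genes of the list for this receptor 6 were kept and 1 had a 4-fold excess, beside 3.70% of all kept genes. It was the glucuronosyltransferase gene Ugt1a6a (2.18). Ugt1a6a shares exons with other genes of its locus, so its level is uncertain. Cyp1b1 (1.85), Nqo1 (1.78), which is also on the NRF2 list, and the receptor gene Ahr (1.02) followed, and Ahr was at 3.68 FPKM at most, in D9T+. Arnt had an excess of -0.20. Cyp1a1, Ahrr and Cyp1a2 were not kept, at 0.890, 0.863 and 0.120 FPKM at most. On day 16, Ugt1a6a, Cyp1b1 and Nqo1, 3 of the 6, were 2-fold lower in D16S+, beside 15.2% of all kept genes. The list median was -1.08, and -0.54 with no filter, over all 9. Targets of NRF2, the regulator of the oxidative stress response, held 1 of 15 genes with a 4-fold excess, beside 3.70% of all kept genes. That was the cystine transporter gene Slc7a11 (3.51), which was kept only through libraries between the ends. Hmox1 (1.96) and Gstm1 (1.79) came next, and Hmox1 was at 315 FPKM in D0, 1227 in D16S- and 192 in iPSCs. The median excess was 1.40 for the first list and 0.95 for the second, and 6 of the 15 NRF2 targets were 2-fold lower in D16S+, beside 15.2% of all kept genes.

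Retinoid genes were taken as the pathway of Adh7, whose product makes retinaldehyde from retinol. Of 17 genes 16 were kept and 5 had a 4-fold excess, beside 3.70% of all kept genes, with a list median of 0.13. Crabp2, which carries retinoic acid to its receptor, had the largest (3.68), at 51.1 FPKM in D0, 669 in D12S- and 7.72 in iPSCs. Cyp26b1, which degrades retinoic acid, followed (3.39), at 2.84 FPKM in D0, 39.2 in D9T+ and 0.791 in iPSCs. Aldh1a1 and Aldh1a3, named above among the aldehyde dehydrogenases, make retinoic acid from retinaldehyde. Both were kept only through libraries between the ends, so the count of 5 is partly set by the filter. On day 16, 10 of the 16 were at least 2-fold lower in D16S+, beside 15.2% of all kept genes, with a median of -1.57. They included genes that were highest in D0 and so unlike Adh7, such as Crabp1 (-4.43 on day 16, excess -0.95), Stra6 (-1.88, excess -2.25) and Dhrs3 (-1.67, excess -0.25).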

How the data were processed

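Messenger RNA of 12 conditions was measured with 1 library each, so groups are single libraries and no test, p-value or spread between replicates could be had. According to the labels and the study's methods, the authors prepared TruSeq mRNA libraries (stranded in the labels), mapped reads to mm9 with STAR, removed reads with more than 2 mismatches or more than 1 locus, and estimated expression with cuffdiff. The deposited values are FPKM, fragments per length of transcript and per mapped fragment of the library, with the interval of cuffdiff for each. Software versions, gene models and how cuffdiff scaled the libraries are not given in the sources used here. Genes with near-identical copies are underestimated where their reads were dropped, and the interval of cuffdiff is modelled from 1 library.

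Columns were matched to libraries by day and sorting marker, reading pos and neg as its sign. A further 12 columns of status words were not used. Values were analysed as log2(FPKM + 1), a scale that understates the change of low genes, in the 14178 of 24098 genes with at least 1 FPKM in 1 library, with python 3.11.15, numpy 2.4.6 and pandas 2.3.3. Fold thresholds, 4 for the intermediate excess and 2 between libraries, count genes and test nothing. Total fragments were not used here. Depth relative to D0, estimated from the steps of low FPKM values, ranged from 0.969 in D9T+ to 1.57 in D6T-, and total FPKM from 484968 to 648264. The functions were tested on simulated data.

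The 4 genes, the 13 gene lists and the alternatives were chosen with earlier results of these data known. Named are the 4 genes, family genes of at least 10 FPKM or a 4-fold excess, the 4 genes of largest excess and the defining markers in each other list, the 5 genes most like each of the 4, and the 2 nearest annotated genes. Dppa5a, Aldh1l2, Tfap2a, Tex101, Sox15, Grhl2, Tfap2c, Klf5, Crabp1, Stra6, Dhrs3, Krt7, Krt8, Krt18, Arnt, Cyp1a1, Ahrr and Cyp1a2 were named after their values were seen. A gene of the retinoid list is not reported here. Alternatives were another pseudocount, library scaling, filter, fold threshold and correlation, leaving out D3, and, added after the data were seen, likeness over the 8 sorted libraries.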

Additional observations from a re-analysis of the deposited data

Results flagged for a closer look

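Lgals7 differed in opposite directions between the fractions of day 6 and of day 16. It was at 197 FPKM in D6T- and 50.6 in D6T+, a difference of 1.94 on the log2 scale, and at 26.9 in D16S+ and 161 in D16S-, a difference of -2.54. The gap between both differences was 4.48. With 1 library for each fraction this gap was not tested, and the sorting marker also differed, Thy-1 on day 6 and SSEA-1 on day 16. For Aldh3a1 the same pair of days gave 0.49 and -3.43, for Adh7 -0.20 and -3.00 and for Slurp1 -0.29 and -3.08.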

How the results depend on the processing

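No paired analysis was possible because each condition had 1 library. Of 428 recomputed values, 48 moved past their margin (1 on the log2 scale, 1.5-fold for counts, 0.1 for r) and 380 did not, among them values that a setting cannot change, such as day 16 differences without D3. With all libraries at the same total FPKM, 4 values near 0 changed sign, to 0.07 for Aldh3a1 on day 9, 0.0041 for Adh7 in iPSCs minus mESCs, and day 16 medians of 0.06 for the aldehyde dehydrogenases and 0.05 for simple epithelial markers. Without D3, 496 genes passed a 4-fold excess, 11 of them cornified markers. At a pseudocount of 0.1, the excess of Slurp1 was 10.68, its differences from D0 were 7.57 in D3, 9.99 in D9T- and 10.27 in D16S-, and iPSCs minus D16S+ was -7.11. That step was -7.22 for Aldh3a1 and -5.75 for Adh7, and iPSCs minus D0 was -2.67 and -2.51, since a smaller pseudocount stretches low values. The same setting gave 890 genes past a 4-fold excess in place of 525, 11 Ly6/uPAR genes and 2 aryl hydrocarbon receptor targets, and 2059, 1494 and 1016 genes 2-fold lower on days 6, 9 and 12 in place of 1342, 914 and 429. With a 2-fold threshold 1531 genes passed the excess, among them 5 aldehyde dehydrogenases, 12 Ly6/uPAR genes, 6 basal keratinocyte markers, 6 stratified transcription factors, 5 simple epithelial markers, 5 aryl hydrocarbon receptor targets and 7 NRF2 targets. With a 4-fold threshold between fractions, 349, 231, 12 and 555 genes were lower on days 6, 9, 12 and 16. Scaling to the same total FPKM passed 2 aryl hydrocarbon receptor targets and 2 NRF2 targets, and the median of ratios 2 NRF2 targets. The total scaling moved the median of all genes by 0.16 between iPSCs and D0 and by 0.30 between D16S+ and D0. Without a filter the day 16 median of the cornified markers was -0.47, and at 5 FPKM 1 stratified transcription factor passed. Spearman's rho was 0.741 for Aldh3a1 and Adh7, 0.803 for Adh7 and Slurp1, 0.650 for Adh7 and Lgals7 and 0.761 for Slurp1 and Lgals7. Over the 8 sorted libraries r was 0.612 for Adh7 and Lgals7 and 0.710 for Slurp1 and Lgals7. iPSCs minus mESCs for Aldh3a1 was -1.75 at a pseudocount of 0.1. Total fragments are unknown, so what depth allows for a single value was not worked out.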
